A study of Mus musculus with 15 samples.

Results

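Pax5, Ebf1, Cd79a, Cd79b, Blk, Blnk, Vpreb1, Igll1 and Ms4a1 are genes of the B lymphocyte lineage, and their chromatin was read here in EL4 cells, a mouse T lymphoma line. The genes were chosen by name, and the window of each was its RefSeq span on GRCm38 plus 10 kb on each side. In both replicates, H3K27me3 intervals lay over Ebf1, Blk, Blnk, Ms4a1 and Pax5, and Pax5 also held a patch of H3K4me3, H3K9ac and H3K27ac near its 3′ end. The active intervals that both replicates shared in the windows of Cd79a, Vpreb1 and Igll1 lay outside these genes, at the starts or in the bodies of the neighbours Arhgef1 and Top3b, with the exception of an H3K27ac interval between Igll1 and Vpreb1. The window of Cd79b held no interval at all. The genes were 9 of 49554 RefSeq genes on chromosomes 1 to 19 and X, of which 21631 were protein-coding. The intervals of 12 lists that reached into these windows numbered 184 in all, of which 122 were of H3K27me3, 21 of H3K27ac, 13 of H3K9ac, 11 of H3K4me3, 10 of ATAC-seq and 7 of H3K36me2. Of the H3K27me3 intervals, 40 in replicate 1 and 38 in replicate 2 lay in the 410.0 kb window of Ebf1, the longest of the 9. An interval in the overlapping windows of Vpreb1 and Igll1 was counted for both genes.

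EL4 cells, from a T lymphoma of the C57BL/6N strain, were profiled by ChIP-seq for 5 histone marks (H3K4me3, H3K9ac, H3K27ac, H3K27me3 and H3K36me2) and by ATAC-seq, in which a transposase cuts open chromatin. The labels name 2 replicates for each of these 6 assays, so that 12 of the 15 samples had a list of called intervals, while the input DNA and the 2 RNA-seq samples were not analysed here. All samples were of a single cell line bought as a single supplier batch, no treatment is named for them, and the methods call replicates technical where they describe ATAC-seq and the merging of peaks, so that the spread between replicates may be technical. No B cell sample was analysed here, and the question asked of each gene was which marks its window held.

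EBF1 and PAX5 are the transcription factors that commit a lymphoid progenitor to the B lineage, and they act on genes for the B cell receptor and its signalling proteins. H3K27me3 is laid down by Polycomb repressive complex 2 over genes kept off, often as broad domains. H3K4me3 and histone acetylation mark active starts and enhancers, and H3K36me2 spreads over gene bodies and the space between genes.

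The promoter sequences show what the start of each gene held, since the position of each mark was measured against these starts. RefSeq promoters on GRCm38.p6, from 250 bases before to 50 bases after the annotated start, were matched for 6 of the 9 genes as 7 records, as Ebf1 has a pair of starts. Cd79b, Blk and Ms4a1 had no entry. The 5 promoters below are printed 5′ to 3′ on the strand of the gene with each CpG in capitals, as they differed in CpG content. They lie at chr4:44710645-44710944 on the minus strand (Pax5), chr11:44619978-44620277 on the plus strand (Ebf1, downstream start), chr7:24897247-24897546 on the plus strand (Cd79a), chr19:40994172-40994471 on the minus strand (Blnk) and chr16:16863936-16864235 on the minus strand (Igll1).
Pax5: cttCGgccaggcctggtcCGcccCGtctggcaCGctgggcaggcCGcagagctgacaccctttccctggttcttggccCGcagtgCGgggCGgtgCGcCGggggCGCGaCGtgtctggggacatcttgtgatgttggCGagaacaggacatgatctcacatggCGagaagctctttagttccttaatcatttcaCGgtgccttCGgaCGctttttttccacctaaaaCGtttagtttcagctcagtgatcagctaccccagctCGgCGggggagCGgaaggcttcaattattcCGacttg
Ebf1: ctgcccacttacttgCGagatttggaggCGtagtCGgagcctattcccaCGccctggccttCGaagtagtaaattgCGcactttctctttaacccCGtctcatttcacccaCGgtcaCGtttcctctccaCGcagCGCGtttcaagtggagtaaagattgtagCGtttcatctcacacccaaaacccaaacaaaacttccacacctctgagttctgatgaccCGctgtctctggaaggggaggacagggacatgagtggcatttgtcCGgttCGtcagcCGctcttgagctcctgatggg
Cd79a: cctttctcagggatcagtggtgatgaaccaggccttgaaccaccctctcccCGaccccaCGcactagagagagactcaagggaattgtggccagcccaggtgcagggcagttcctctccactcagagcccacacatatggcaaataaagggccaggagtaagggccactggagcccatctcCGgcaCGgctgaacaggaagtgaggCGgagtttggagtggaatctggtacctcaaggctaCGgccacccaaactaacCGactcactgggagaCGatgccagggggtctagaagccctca
Blnk: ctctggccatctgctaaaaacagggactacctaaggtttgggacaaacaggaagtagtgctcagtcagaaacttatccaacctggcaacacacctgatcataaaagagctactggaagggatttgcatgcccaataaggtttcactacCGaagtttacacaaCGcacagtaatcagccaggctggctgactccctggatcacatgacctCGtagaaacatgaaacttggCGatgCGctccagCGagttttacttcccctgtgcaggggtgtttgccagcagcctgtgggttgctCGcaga
Igll1: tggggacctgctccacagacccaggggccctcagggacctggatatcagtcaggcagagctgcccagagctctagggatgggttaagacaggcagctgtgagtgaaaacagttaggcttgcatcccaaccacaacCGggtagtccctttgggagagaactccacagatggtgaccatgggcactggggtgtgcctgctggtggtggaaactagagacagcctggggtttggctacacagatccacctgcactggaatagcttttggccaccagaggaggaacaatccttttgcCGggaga

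The median over 32619 RefSeq promoters was 7.0 CpG. The Pax5 promoter held 23 CpG, more than 78.3% of all promoters, and the downstream start of Ebf1 held 17, more than 68.4%. The upstream start of Ebf1 held 9, Cd79a 8 and Blnk 7, so that these 3 lay near the median. The genes of the surrogate light chain were poorest, with 2 CpG each at Vpreb1 and Igll1, and 13.9% of promoters held fewer. Among 5 motifs searched on both strands, the palindromic EBF1 site was in none of the 7 records and in 0.907% of all promoters. The octamer ATTTGCAT was in the Blnk promoter at position -130 from the start and in 1.75% of all promoters. The ETS core AGGAAG was found once each in Cd79a at -55, Blnk at -202 and Vpreb1 at -82, there on the opposite strand, and in 35.2% of all promoters. The E-box CANNTG was in all records but the upstream start of Ebf1 and in 72.3% of promoters, and the TATA box TATAAA was in no record and in 13.7% of promoters. A match is only a run of letters, sites that depart from these letters were not searched, and no binding was measured.

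The lists held 17519 to 28279 intervals in the libraries of H3K4me3, H3K9ac, H3K27ac and ATAC-seq, 38897 and 40826 in those of H3K36me2, and 46015 and 38014 in those of H3K27me3. The H3K27me3 list of replicate 2 had fewer but wider intervals, covering 297 Mb against 259 Mb in replicate 1, and the lists carry no read counts, so that depth is unknown. Of 12 T cell markers (Cd3e, Lck, Tcf7 and others), 12 had an active assay in both replicates, beside 40.8% of RefSeq and 60.2% of protein-coding genes, and 0 had H3K27me3, beside 23.1% and 24.3%. The start base lay in an active interval of both replicates at 10 of 10 T cell markers with an annotated start, against 33.0% of the 26794 RefSeq genes with one.

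A gene was called for an assay when the lists of both replicates held at least 1 bp in its window, and an assay was termed active if it was H3K4me3, H3K9ac, H3K27ac or ATAC-seq. H3K27me3 was called at 5 of the 9 B lineage genes (Pax5, Ebf1, Blk, Blnk and Ms4a1), against 23.1% of all RefSeq genes and 24.3% of protein-coding ones. These 5 had the longest windows of the 9, from 36.5 kb to 410.0 kb, while the other windows were 20.9 kb to 24.4 kb long. The median window was 26.0 kb over RefSeq genes and 37.3 kb over protein-coding ones. A longer window has more room for an interval, and the background shares were not matched for length. H3K4me3, H3K9ac and H3K27ac were each called at 4 genes (Pax5, Cd79a, Vpreb1 and Igll1), against 37.9%, 36.5% and 38.1% of RefSeq genes and 57.7%, 56.3% and 57.6% of protein-coding ones, in this order. ATAC-seq was called at 3 genes (Cd79a, Vpreb1 and Igll1), against 34.3% of RefSeq and 53.7% of protein-coding genes. At least 1 active assay was called at 4 genes, against 40.8% and 60.2%. H3K36me2 was called at 2 genes (Pax5 and Cd79a), against 38.4% and 53.8%. With replicate 1 alone it was found at 5, against 41.8% of RefSeq genes. Blnk, Vpreb1 and Igll1 each held a single H3K36me2 interval in replicate 1 and none in replicate 2. With the span alone as the window, the counts for H3K4me3, H3K9ac and H3K27ac each fell to 1, the gene being Pax5, and that of ATAC-seq fell to 0. H3K27me3 was called at the same 5 genes. The shares of all RefSeq genes fell as well, to 27.7% (H3K4me3), 26.5% (H3K9ac), 27.5% (H3K27ac), 23.7% (ATAC-seq) and 14.0% (H3K27me3).

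**Figure D1:**
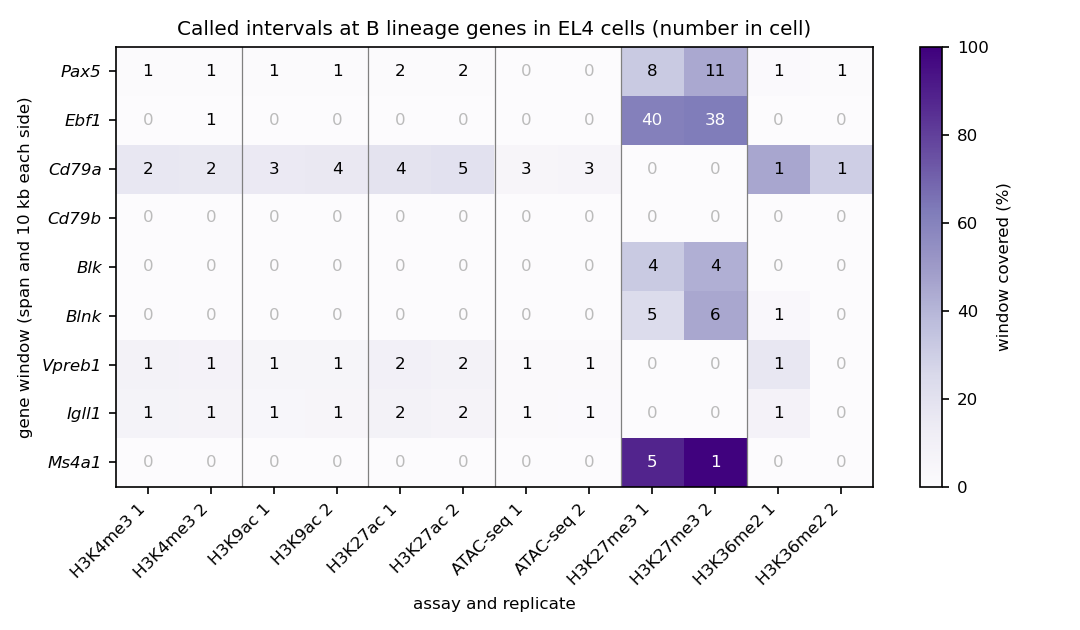
Number of called intervals in each gene window (rows) in each replicate of the 6 assays (columns), with the colour giving the percent of the window that they cover. H3K27me3 has intervals in both replicates in the rows of Pax5, Ebf1, Blk, Blnk and Ms4a1, H3K4me3, H3K9ac and H3K27ac in those of Pax5, Cd79a, Vpreb1 and Igll1, ATAC-seq in those of Cd79a, Vpreb1 and Igll1, and the row of Cd79b is at 0 in all 12 lists.

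These calls sorted the 9 genes into 4 states. H3K27me3 without an active assay was the state of 4 genes (Ebf1, Blk, Blnk and Ms4a1), against 17.8% of RefSeq genes and 15.6% of protein-coding ones. H3K27me3 together with an active assay was the state of Pax5 alone, against 5.33% and 8.68%, and with replicate 2 alone Ebf1 also entered it, giving 2. An active assay without H3K27me3 was found at 3 genes (Cd79a, Vpreb1 and Igll1), against 35.5% and 51.6%. No interval of any list lay in the window of 1 gene (Cd79b), against 26.3% of RefSeq genes and 15.3% of protein-coding ones. The other states held none of the 9 genes, namely H3K36me2 only (7.26% and 4.1%) and intervals of a single replicate (7.85% and 4.75%). A share from 9 genes moves by a large step with each gene, and no test was made of these counts.

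No annotated start of the 6 genes that had one (Pax5, Ebf1, Cd79a, Blnk, Vpreb1 and Igll1) lay in an interval of any of the 12 lists. Among the 26794 RefSeq genes with a start, 33.0% had it in an active interval of both replicates. The active intervals in the windows were therefore all away from the starts, and their distances are given gene by gene. The H3K27me3 intervals likewise left the starts free at Pax5, at both starts of Ebf1 and at Blnk. Blk and Ms4a1, also called for H3K27me3, had no annotated start and could not be read. Both ends of the Ms4a1 span lay in H3K27me3 intervals of both replicates. Among the 6639 RefSeq genes called for H3K27me3 that had a start, 52.2% had it in the intervals of neither replicate, so that an uncovered start was common among such genes.

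Pax5, the factor that holds B cell identity, lies at chr4:44524748-44710694 on the minus strand, a span of 186 kb. Its window held 8 intervals of H3K27me3 in replicate 1 and 11 in replicate 2, which covered 31.8% and 44.6% of the window (38.2% ± 9.06, SD, n = 2). The replicates overlapped over 54.3 kb, which was 52.7% of what either covered. The longest intervals were 24.8 kb and 25.4 kb, and they were in different places: the former began 10.1 kb downstream of the start and ran over the lncRNA gene Gm12462, while the latter lay 40.5 to 65.9 kb from the 3′ end. Within 3 kb of H3K27me3 intervals also lay the lncRNA gene 5730488B01Rik in replicate 1 and the microRNA gene Mir5120 in both replicates, each inside the Pax5 span. The nearest H3K27me3 upstream of the start was 4.91 kb away in replicate 1 and 3.51 kb in replicate 2.

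At the other end of Pax5, about 180.0 kb from its start, lay the only active intervals inside any of the 9 spans that both replicates shared. H3K4me3 was called there over 1494 bp in replicate 1 and 1365 bp in replicate 2, and H3K9ac over 1274 bp and 954 bp. H3K27ac was called as pieces of 277 bp and 1231 bp in replicate 1 and of 237 bp and 1518 bp in replicate 2. These 6 lists shared 951 bp at chr4:44529909-44530859, which lies 5.16 kb inside the 3′ end of the gene, and the gene table does not say whether this is exon or intron. The widths of H3K4me3 were near the medians of their lists, 1345 bp and 1359 bp, while the larger H3K27ac pieces were wider than 65.5% and 74.5% of their lists and the H3K9ac intervals wider than 63.0% and 50.4% of theirs. On the side of the start, an H3K36me2 interval of 2599 bp overlapped the edge of this patch in replicate 1. In replicate 2 an H3K36me2 interval of 1999 bp lay beside the patch without touching it, and both intervals ended at the same base.

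ATAC-seq had no interval in the Pax5 window in either replicate, and its nearest interval lay 45.3 kb and 45.4 kb beyond the gene, upstream of the start. Across the genome, 14803 H3K4me3 loci shared base pairs among both replicates of H3K4me3, H3K9ac and H3K27ac, and 2409 of them (16.3%) likewise had no ATAC-seq interval in either replicate. Such loci were narrow, with a median H3K4me3 width of 832 bp against 1725 bp for loci with ATAC-seq, and 82.4% of them were narrower than the locus in Pax5. H3K27me3 and the active patch did not touch, as the nearest H3K27me3 interval began 19.3 kb from the 3′ end in replicate 1 and 34.7 kb in replicate 2.

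Ebf1, the pioneer factor of the B lineage, lies at chr11:44618100-45008096 on the plus strand and has a span of 390.0 kb, the longest of the 9. H3K27me3 covered 60.9% of its window in replicate 1 and 62.3% in replicate 2 (61.6% ± 0.983, SD, n = 2), in 40 and 38 intervals of at most 21.0 kb and 22.0 kb. The shares of the replicates were close, but their positions were less so, as 181.0 kb were covered in both, or 55.8% of what either covered. The nearest H3K27me3 upstream of the first annotated start was 6.5 kb and 6.3 kb away, and downstream it began after 2.3 kb in replicate 1 and 5.3 kb in replicate 2. The downstream start, at the CpG-rich promoter printed above, was 0.173 kb short of an interval in replicate 1 and 3.17 kb short in replicate 2. The window held no H3K9ac, H3K27ac, ATAC-seq or H3K36me2. A single H3K4me3 interval of 218 bp was called at its 3′ end in replicate 2 and not in replicate 1, and only 2.17% of the intervals of that list were narrower.

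Blk, a Src family kinase of B cells, lies at chr14:63372837-63417187, a span of 44.4 kb. Its window held 4 intervals of H3K27me3 in each replicate, covering 32.0% and 42.3% (37.1% ± 7.27, SD, n = 2). Over the span alone the shares were 36.9% and 51.9%, and the replicates had in common 43.1% of what either covered. A stretch from 13.4 kb to 23.0 kb above the low-coordinate end in replicate 1 contained that from 14.6 kb to 20.8 kb in replicate 2. The interval of 11.4 kb in replicate 2 that followed it was the longest at the gene. None of the other 10 lists had an interval in the window, and the nearest H3K4me3, H3K9ac, H3K27ac and ATAC-seq were all 126.0 kb to 127.0 kb from the gene.

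Blnk, the adaptor that passes the signal of the B cell receptor from SYK to phospholipase C, lies at chr19:40928927-40994221 on the minus strand, a span of 65.3 kb. H3K27me3 covered 23.5% of its window in replicate 1 and 45.3% in replicate 2 (34.4% ± 15.4, SD, n = 2), the widest gap between replicates at any of the 9 genes. In common were 13.7 kb, or 30.3% of what either covered, the lowest such share. Both replicates placed intervals beginning 3.02 kb and 2.62 kb downstream of the start. Both also had a long interval, of 22.0 kb and 29.4 kb, that entered the window from beyond the 3′ end. This long interval overlapped or lay within 3 kb of the gene Zfp518a in both replicates, and of the microRNA gene Mir8092 in replicate 2. H3K36me2 was called in the upstream flank in replicate 1 alone, over 3599 bp that overlapped or lay within 3 kb of the lncRNA gene C330026H20Rik. The nearest H3K4me3, H3K9ac and H3K27ac were 21.9 kb upstream of the start in both replicates.

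Ms4a1, which codes for CD20, the surface protein of mature B cells, lies at chr19:11249679-11266149, a span of 16.5 kb within the lncRNA gene 4930526L06Rik. H3K27me3 covered 88.1% of its window in replicate 1 and 99.1% in replicate 2 (93.6% ± 7.76, SD, n = 2), and 99.5% of all RefSeq genes had a lower mean share. Replicate 2 had a single interval of 47.6 kb, chr19:11240001-11287599, which ran on over Ms4a5, a gene of the same family. Replicate 1 had 5 intervals, the longest of 11.6 kb, and each of them lay inside the interval of replicate 2. The first of them began at the same base as the interval of replicate 2. The replicates had 32.1 kb of the window in common, or 88.9% of what either covered, the highest such share of the 5 genes. No other list had an interval in the window, and the nearest H3K4me3 was 89.8 kb away in replicate 1 and 146.0 kb in replicate 2.

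**Figure D2:**
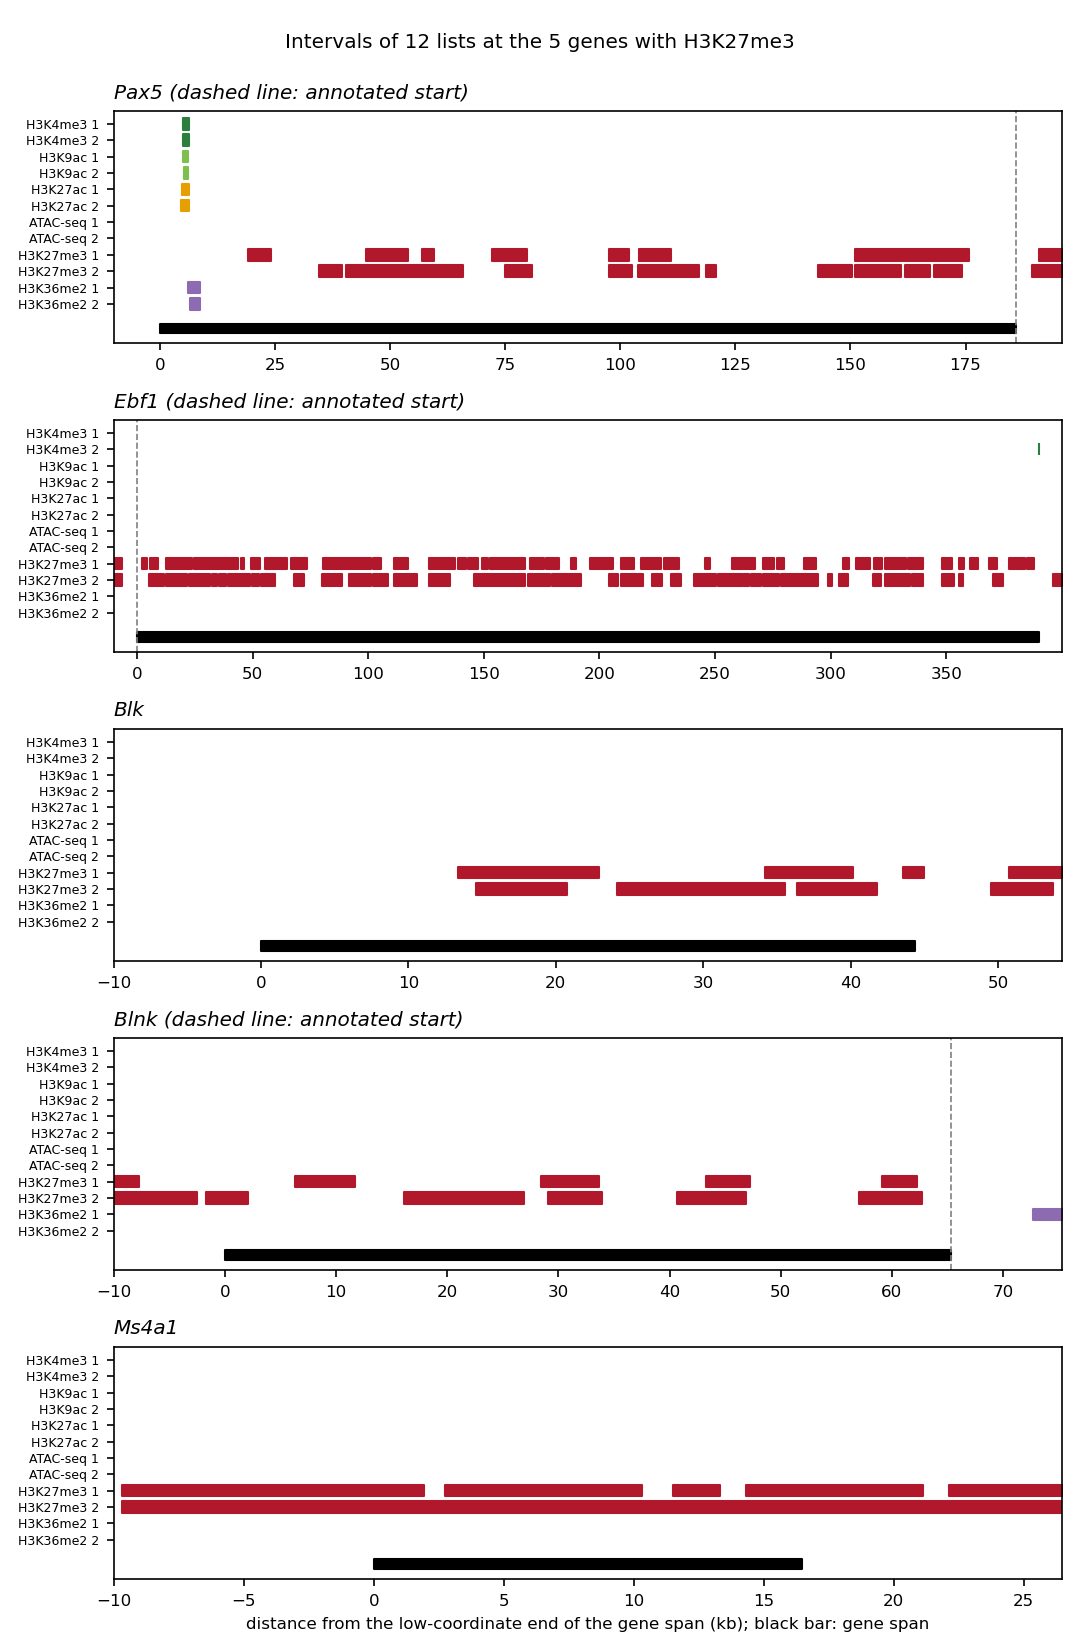
Intervals of the 12 lists at the 5 genes called for H3K27me3, drawn by distance in kb from the low-coordinate end of the gene span (black bar), with a dashed line at the first annotated start where the table gives one. H3K27me3 (red) lies in separate blocks over Pax5, Ebf1, Blk and Blnk and fills the window of Ms4a1, while the active marks of Pax5 sit about 5.16 kb from its 3′ end with no ATAC-seq interval.

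Set side by side, the 5 genes fell into a low and a high range of H3K27me3. The mean shares of Blnk, Blk and Pax5 were 34.4%, 37.1% and 38.2%, and their replicates overlapped, so that their order cannot be told. Ebf1 followed at 61.6% and Ms4a1 at 93.6%, and both replicates of each lay above both replicates of the genes before it. The median over the 11462 RefSeq genes called for H3K27me3 was 33.9%, with quartiles of 17.3% and 58.1%. Of these genes, 50.7% lay below Blnk, 53.9% below Blk, 55.1% below Pax5 and 78.1% below Ebf1, so that Blnk, Blk and Pax5 were near the middle of the genes that carry the mark. At all 5 genes replicate 2 covered more of the window than replicate 1, as its list also did over the genome.

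**Figure D3:**
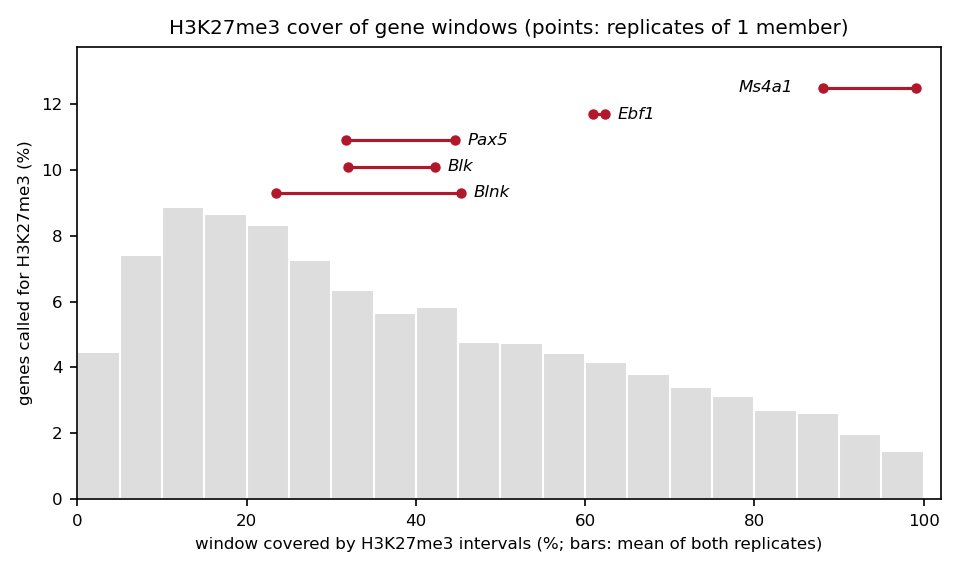
Percent of the window covered by H3K27me3 intervals (horizontal axis) for the replicates of the 5 genes (red points joined by a line, at arbitrary heights), over a histogram of the mean of both replicates for the 11462 RefSeq genes called for H3K27me3 (grey bars, percent of those genes). Blnk, Blk and Pax5 lie around the median of 33.9%, Ebf1 at 60.9% and 62.3%, and Ms4a1 at 88.1% and 99.1%.

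Cd79a and Cd79b code for the paired signalling chains of the B cell receptor, and their windows differed. Cd79a lies at chr7:24897497-24901858 on the plus strand, a span of 4.36 kb, and carried no H3K27me3, the nearest being 129.0 kb away in replicate 1 and 19.5 kb in replicate 2. Its active intervals began beyond its 3′ end. H3K4me3 was called over 2635 bp in replicate 1 and 2567 bp in replicate 2, from 4.87 kb and 4.96 kb downstream of the Cd79a start, and both covered the start of Arhgef1, a guanine nucleotide exchange factor of leukocytes whose gene begins 1.13 kb after the end of Cd79a. A second H3K4me3 interval, of 1330 bp and 1284 bp, lay inside Arhgef1. ATAC-seq had 3 intervals in each replicate, all at or in Arhgef1, the nearest 0.91 kb and 0.943 kb from the span of Cd79a.

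H3K9ac at the same places had 3 intervals in replicate 1 and 4 in replicate 2, and H3K27ac had 4 and 5. Of these, 1 of H3K9ac in replicate 2 and 1 of H3K27ac in each replicate lay on the other side, at the ribosomal protein gene Rps19, with widths of 200 bp to 261 bp and no overlap with the other replicate. H3K36me2 ran over Arhgef1 and covered 45.4% of the window in replicate 1, where it reached 3.3 kb from the Cd79a start and so into its span, and 29.8% in replicate 2, where it stopped 2.74 kb short of the span. No interval of any list touched the span of Cd79a in both replicates.

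Cd79b lies at chr11:106311341-106314562, a span of 3.22 kb between Gh, the growth hormone gene, and Scn4a, a sodium channel gene of skeletal muscle. Its window had no interval in any of the 12 lists. The nearest were of H3K27me3 in replicate 1, 12.0 kb from the span, and of H3K4me3, 14.9 kb from it in both replicates. H3K27me3 of replicate 2 was 38.8 kb away, and the nearest interval of the remaining lists was 34.3 kb away. The lists hold only positions of intervals that passed a caller, so that a mark below that limit was not detectable here.

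Vpreb1 and Igll1 code for the proteins of the surrogate light chain, which pairs with the heavy chain in early B cells, and they lie 4.42 kb apart on the minus strand at chr16:16868401-16869255 and chr16:16860671-16863985. Neither window held H3K27me3, the nearest to Vpreb1 being 40.6 kb and 27.8 kb away. H3K4me3 was called over 1649 bp in replicate 1 and 1605 bp in replicate 2 at the start of Top3b, a topoisomerase gene of the plus strand that begins 1.47 kb from Vpreb1. Its near edge was 0.967 kb and 1.01 kb upstream of the Vpreb1 start. H3K9ac of 1082 bp and 1136 bp, H3K27ac of 1394 bp and 1067 bp and ATAC-seq of 407 bp and 334 bp lay at the same place in the replicates. For Igll1 the same H3K4me3 intervals were 6.24 kb and 6.29 kb upstream of the start.

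A second H3K27ac interval lay by itself between Igll1 and Vpreb1, at chr16:16866047-16866552 (506 bp) in replicate 1 and chr16:16865979-16866545 (567 bp) in replicate 2, with 499 bp in common. It was 2.06 kb and 1.99 kb upstream of the Igll1 start, and 2.7 kb and 2.71 kb downstream of the Vpreb1 start. None of the other 10 lists had an interval there. Across the genome, 959 of 27602 H3K27ac intervals of replicate 1 on chromosomes 1 to 19 and X (3.47%) were met by replicate 2 and by none of the other 10 lists, with a median width of 337 bp. It was the only active interval within 3 kb of Igll1. H3K36me2 of 3399 bp inside Top3b was called in replicate 1 alone.

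**Figure D4:**
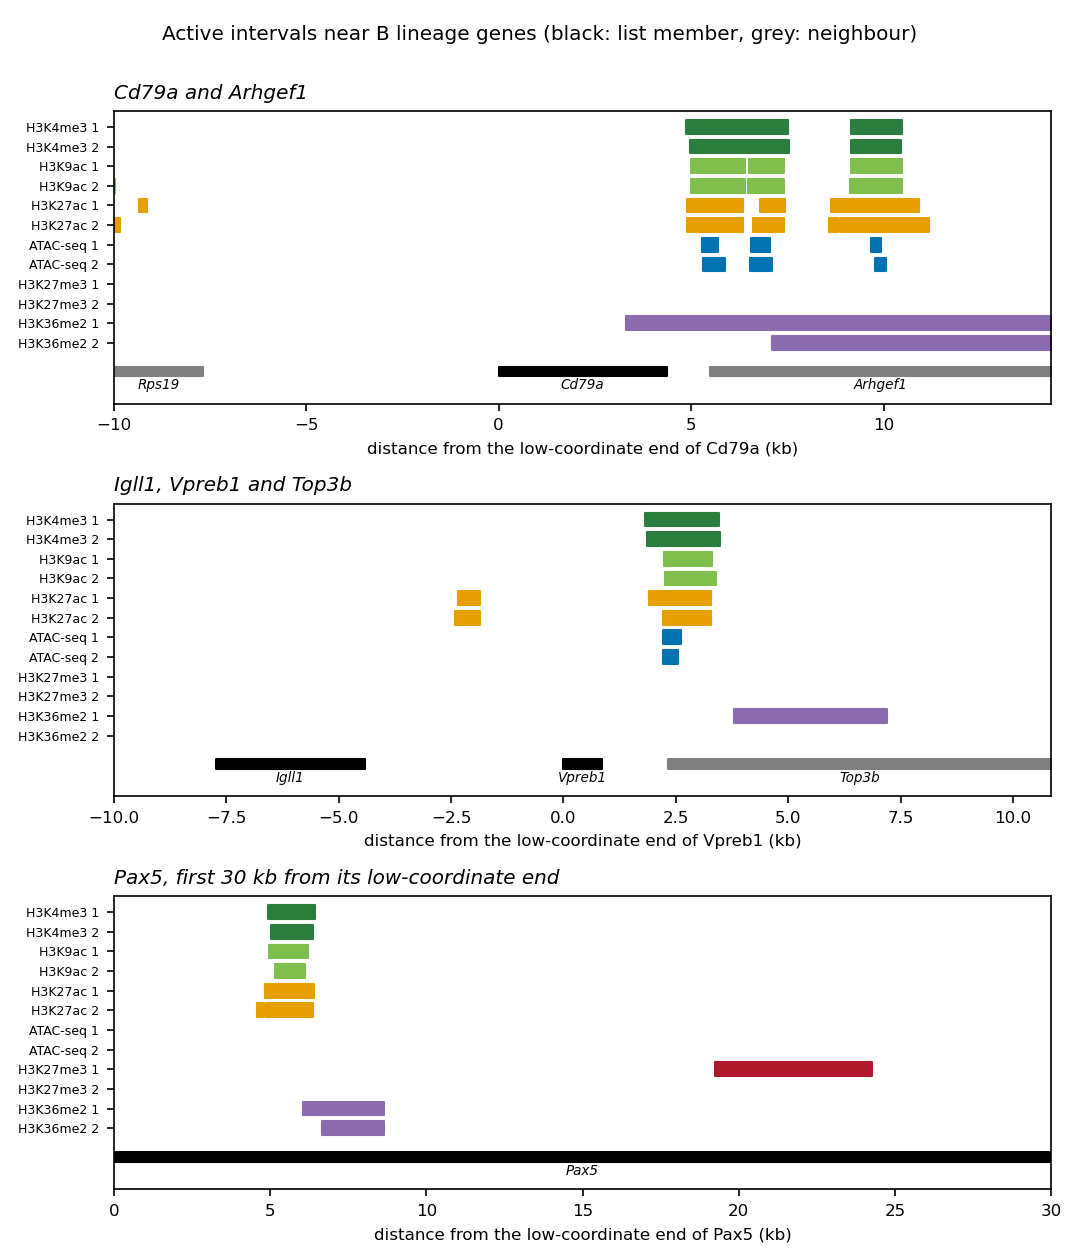
Intervals of the 12 lists around the active marks near Cd79a, near Igll1 and Vpreb1, and in the 3′ part of Pax5, by distance in kb from the low-coordinate end of Cd79a, Vpreb1 and Pax5 (black bars: B lineage genes, grey bars: neighbours). At Cd79a and Vpreb1 the shared intervals of the 4 active assays lie at the start and in the body of Arhgef1 and at the start of Top3b, an H3K27ac interval sits alone between Igll1 and Vpreb1, and the patch in Pax5 has no ATAC-seq.

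Other genes of the pathway were read by the same rule from a list of 20 further B cell genes. H3K27me3 was called at 5 of the 20, beside 23.1% of RefSeq and 24.3% of protein-coding genes, so that the share was near the background. All 5 had it without an active assay, namely Bcl11a (58.1% and 80.5% of the window in the replicates), Cd72 (60.3% and 73.7%), Ciita (25.9% and 17.2%), Rag1 (59.1% and 83.4%) and Rag2 (72.9% and the whole window). Rag1 and Rag2 code for the recombinase that both B and T cells use to build their receptors, Bcl11a and Ciita for a transcription factor and the activator of MHC class II genes, and Cd72 for a receptor of B cells. An active assay was called in the window at 12 of the 20, near the 60.2% of protein-coding genes and beside 40.8% of RefSeq genes. Among them were Bank1, Btk, Cd22, Cr2, Dntt and Fcer2a, and Dntt codes for the terminal transferase of both lymphoid lineages. Within 3 kb outside or 2 kb inside a span end, both replicates held an active assay at 7 of the 20. Bank1, Cd22 and Cr2 were not among these, and the share over RefSeq genes was not computed. H3K36me2 was the only mark called at Tnfrsf13c, and Cd40 had H3K27me3 in replicate 2 alone over 30.5% of its window.

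The start base lay in an active interval of both replicates at 3 of the 17 further B cell genes with an annotated start (Pou2af1, Pou2f2 and Dntt). It did so at 0 of 6 of the B lineage genes above, and at 33.0% of RefSeq starts. Pou2af1 and Pou2f2 code for the octamer coactivator and an octamer-binding factor. A further list held 14 genes named as regulators used by both the B and the T lineage, a use that was not checked here for each gene. Of these, 10 had an active assay without H3K27me3, among them Ets1, Foxo1, Ikzf1, Il7r, Irf4 and Mef2c, beside 35.5% of RefSeq and 51.6% of protein-coding genes. The median window of this list was 105.0 kb, against 26.0 kb over RefSeq genes, so that these shares were not matched for length. Of the 11 genes of this list with a start, 7 had it in an active interval, beside 33.0% of RefSeq starts. At the span ends, measured as above, 7 of the 14 held an active assay in both replicates, and Ets1 and Mef2c were not among them. Bach2 (38.6% and 41.5%) and Syk (41.1% and 72.2%), the kinase that phosphorylates BLNK, had H3K27me3 without an active assay. Cd24a had H3K36me2 only, and Lyn had H3K27me3 in replicate 1 alone over 3.59% of its window. Of 9 myeloid markers, 6 had an active assay without H3K27me3, 1 had both, 1 had H3K27me3 only and 1 had H3K36me2 only, beside 51.6%, 8.68%, 15.6% and 4.1% of protein-coding genes and 35.5%, 5.33%, 17.8% and 7.26% of RefSeq genes in this order. In the same list 0 of 6 starts lay in an active interval, so that an active interval in the window and one over the start were not the same measure.

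**Figure D5:**
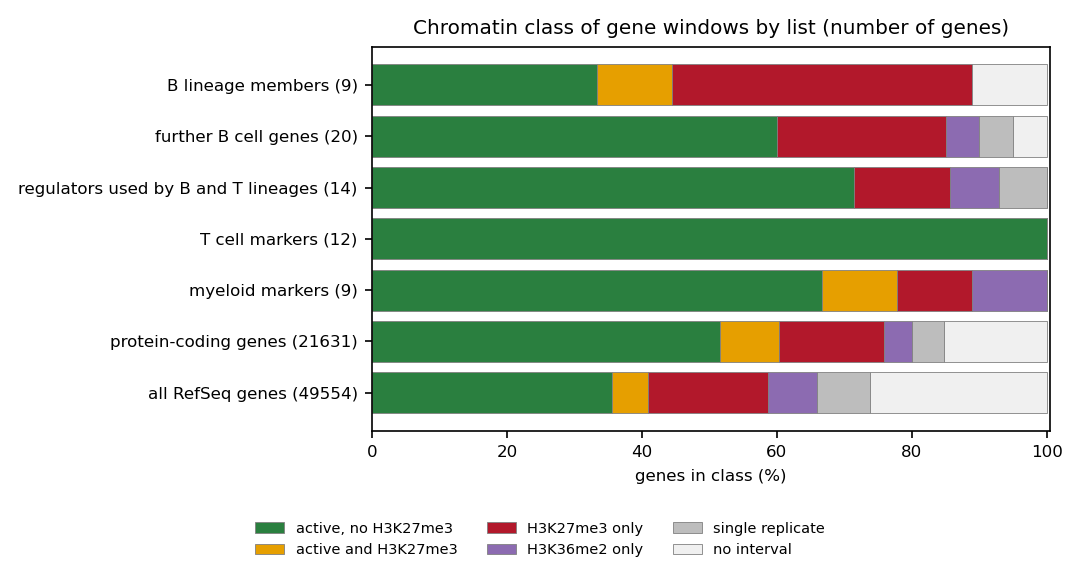
Percent of the genes of each list (bars, with the number of genes in brackets) in each of 6 chromatin states of their window, by intervals called in both replicates. H3K27me3 without an active assay makes up 4 of the 9 B lineage genes and 5 of the 20 further B cell genes, beside 17.8% of all RefSeq genes, and the 12 T cell markers are all active without H3K27me3.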

How the data were processed

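ChIP-seq and ATAC-seq of EL4 cells were available as 12 lists of called intervals. According to the methods, the authors aligned reads with STAR (version 2.5 in the submitters' processing notes), kept unique alignments, discarded mitochondrial and sex-chromosome reads, and used Picard against amplification bias. They called peaks of H3K4me3, H3K9ac, H3K27ac and ATAC-seq with MACS2 and broad domains of H3K27me3 and H3K36me2 with Epic, with the input as control for ChIP-seq. The lists nevertheless held intervals on chromosome X. Each deposited list gives 3 columns per replicate, a chromosome with the first and last position of an interval on GRCm38, and the authors gave no score, count or signal, so that depth is unknown and no counting error could be computed.

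Starts were converted to count from 1. Gene spans came from a RefSeq table of GRCm38.p6, and strands and starts from a RefSeq promoter table. A gene was called for an assay if both replicates held at least 1 bp in its span plus 10 kb on each side, and the share of the window covered was computed for H3K27me3. Alternatives were either replicate, each replicate alone, windows of the span alone or with 2 or 50 kb, an overlap of 200 bp, intervals of at least 500 bp, base pairs covered in both replicates, protein-coding genes alone, and the start base, which was added after seeing the data. All 9 genes are named, neighbours are named where an interval touched them or lay within 3 kb of them, and up to 6 genes, in alphabetical order, of each state of the longer lists are named. The 9 genes and all lists were chosen with earlier results of these data known. No test was made. The overlap step was tested on simulated data, where it recovered 200 of 200 planted genes among 5000 with 0 false calls, and its calls over 49554 windows differed from those of bedtools 2.31.1 in 0 cases. Python 3.11.15, numpy 2.4.6, pandas 2.3.3 and matplotlib 3.10.9 were used. The lists of genes used beside the 9 were 20 further B cell genes, 14 genes named as regulators used by B and T lineages, 12 T cell markers and 9 myeloid markers.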

Additional observations from a re-analysis of the deposited data

How the results depend on the processing

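H3K27me3 was called at 5 of the 9 genes under every alternative but the window with 50 kb on each side and the start base. With 50 kb it was called at 8. At the start base it was called at 0 of the 6 genes with an annotated start, and Blk and Ms4a1 could not be read there. With the span alone, H3K4me3, H3K9ac and H3K27ac were called at 1 gene each, ATAC-seq at 0 and H3K36me2 at 1, and the states held 0 genes active without H3K27me3, 1 gene with intervals of a single replicate and 3 with none. With 2 kb on each side, H3K36me2 was called at 1 gene and 1 gene had intervals of a single replicate. With 50 kb, H3K4me3 was called at 7, ATAC-seq at 5 and H3K36me2 at 6, and 1 gene was active without H3K27me3, 6 had both, 2 had H3K27me3 only and 0 had no interval, as wider windows take in more neighbours. With intervals in either replicate, H3K36me2 was found at 5 genes, against 45.6% of RefSeq genes, and H3K27me3 with an active assay at 2. Leaving out a replicate gave 2 to 5 genes for H3K36me2 and 1 to 2 for H3K27me3 with an active assay. The shares of RefSeq genes with H3K36me2 were 42.2% without replicate 1 and 41.8% without replicate 2. Shares over all RefSeq genes were not computed for windows with 2 or 50 kb, overlaps of 200 bp or intervals of at least 500 bp. For the states they were not computed under other windows, replicate rules or filters. With intervals of at least 500 bp, ATAC-seq was called at 0, a filter above the median widths of the ATAC-seq lists, 418 bp and 428 bp. At the start base, an alternative chosen after seeing the data, all 6 assays were at 0 among the 6 genes with an annotated start. The share of the window under H3K27me3 in both replicates was 26.4% at Pax5, 44.2% at Ebf1, 22.4% at Blk and 16.0% at Blnk. With the span alone, the mean of the shares of the replicates was 63.3% at Ebf1 and 44.4% at Blk. Over the whole window that mean was 61.6% at Ebf1 and 37.1% at Blk. The shares of protein-coding genes called were 53.7% (ATAC-seq), 57.6% (H3K27ac), 56.3% (H3K9ac) and 57.7% (H3K4me3). With the span alone, the shares of RefSeq genes called were 23.7% (ATAC-seq), 27.5% (H3K27ac), 26.5% (H3K9ac), 27.7% (H3K4me3), 26.5% (H3K36me2) and 14.0% (H3K27me3). No paired analysis was possible because the lists give positions without values and no test was made. Where a cause is not named above, the cause was not tested. Depth is unknown, and an interval missing from a list may be a mark below the limit of the caller.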
